A study of Mus musculus with 22 samples.

Results

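The genes described here encode the proteasome, the barrel-shaped protease that degrades ubiquitin-tagged proteins. They are all the genes of the count table whose symbol is Psm, followed by a letter from a to g and a number, 50 of 24454 genes. By role, 14 of them encode the constitutive core (7 alpha ring and 7 beta ring genes), 17 the cap (6 ATPases and 11 other subunits), 3 the immune catalytic subunits, 2 tissue-type core subunits, 3 chaperones of the cap base, 5 activators, 1 an inhibitor-like protein and 4 chaperones of core assembly, while Psmc3ip is a recombination factor that carries the prefix only because its protein binds a cap ATPase. The study asked how endothelial cells of the mouse embryo turn into blood cells. Untreated C57BL/6 wild-type embryos of E9.5, E10 or E11 (days of embryonic development) were dissected, and cells of the aorta-gonad-mesonephros (AGM), the region in which the first blood stem cells arise, were sorted on the endothelial surface protein VE-Cadherin together with CD44 and Kit. Each of the 22 libraries holds the RNA of 25 sorted cells of 1 population and stage.

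The 10 CD44Neg libraries (labelled endothelial cell) came from E9.5 (4), E10 (3) and E11 (3), and the 6 CD44LowKitNeg libraries (labelled hemogenic endothelial cell) from E9.5 (1), E10 (2) and E11 (3). The 3 CD44LowKitPos libraries (labelled Pre-HSPC, a precursor of haematopoietic stem and progenitor cells) came from E9.5 (1) and E10 (2), and the 3 CD44High libraries (labelled HSPC) from E11. A numeric code that ends each library's description changes together with the stage, so stage and code cannot be told apart. CD44High shares no stage with CD44LowKitPos, and in their comparison stage and population cannot be told apart either. No label says that libraries of a population came from separate embryos or litters, and the p-values therefore measure the spread between these libraries, which may be technical.

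The libraries held 3912350 to 8657546 counts each, and no 2 libraries of a population agreed within counting noise. The labels were checked against markers, in normalized CPM, the counts of a gene scaled to a common library size. Cd44 averaged 29.9 ± 19.5 CPM in CD44Neg (SD, n = 10) and between 254 and 268 CPM in the other populations, and Kit was highest in CD44LowKitPos at 230 ± 50.1 CPM (SD, n = 3). The 6 endothelial markers summed to 2200 to 4179 CPM in CD44Neg, 2803 to 5982 in CD44LowKitNeg, 488 to 1215 in CD44LowKitPos and 14.3 to 65.0 in CD44High, where Cdh5, which encodes VE-Cadherin, was at 0 in all 3 libraries. The 6 blood progenitor markers summed to 0 to 35.6 CPM in CD44Neg, 4.49 to 231 in CD44LowKitNeg, 333 to 753 in CD44LowKitPos and 668 to 859 in CD44High. The 3 CD44High libraries also held all 8 macrophage markers on the list, at 1697, 4562 and 4007 CPM in replicates 20, 21 and 22, against 0 to 12.5 in CD44Neg, 0 to 53.0 in CD44LowKitNeg and 10.1 to 18.8 in CD44LowKitPos. In CD44LowKitPos 4 of the 8, Adgre1, C1qa, C1qb and C1qc, were at 0 in all 3 libraries. Of the others there, Csf1r had 1.51 to 9.74 CPM and Fcgr1 1.21 to 3.74 in every library, both at 0 in all 10 CD44Neg libraries, while Mrc1 (15.7 CPM) and Cx3cr1 (0.45 CPM) were each seen in 1 library. Csf1r was called higher than in CD44Neg and than in CD44LowKitNeg (edgeR adjusted p = 2.23e-05 and 0.000187). At or near 0 in both, it passed the filter on low counts through the other populations, and nothing is read from these p-values. The 7 erythroid markers summed to 255, 47.4 and 225 CPM in CD44High replicates 20, 21 and 22, against 0 to 22.7 in CD44Neg, 13.8 to 60.7 in CD44LowKitNeg and 8.37 to 26.8 in CD44LowKitPos, and 6 mesenchyme markers to 120, 104 and 0.27, against 0 to 13.8, 4.19 to 46.5 and 0.16 to 13.3. The erythroid regulator Klf1 averaged 113 CPM in CD44High and 0.040 in CD44Neg, whereas the alpha globin genes Hba-a1 and Hba-a2 were listed at 0 in every library. CD44High, which held blood progenitor markers together with those of other cell types, is therefore named here by its sort alone. The part of the macrophage, erythroid and mesenchyme markers in the results on CD44High, and of the macrophage markers in those on CD44LowKitPos, was not tested.

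The proteasome core is a stack of alpha rings, which gate the barrel, around beta rings, which hold the catalytic sites. Psmb6, Psmb7 and Psmb5 supply the caspase-like, trypsin-like and chymotrypsin-like activity. The cap sits on the barrel's end, where its ATPases unfold the substrate and its other subunits bind and remove ubiquitin. In immune cells and after interferon, Psmb9, Psmb10 and Psmb8 replace Psmb6, Psmb7 and Psmb5 in newly built cores, which alters the peptides made for presentation on MHC class I, and Psme1 and Psme2 form a ring that can take the place of the cap. Blood cells are known for high levels of these immune subunits, and most other tissues hold mainly the constitutive set.

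In CD44Neg endothelium the constitutive core was the most abundant role per transcript length. Divided by exon length, alpha ring genes lay between 176 CPM per kb (Psma2) and 571 CPM per kb (Psma7), with a median of 341. Beta ring genes ranged more widely, from 135 CPM per kb for Psmb5 to 879 for Psmb6. Cap ATPases had a median of 211 CPM per kb and the other cap subunits one of 133, with the lowest level at Psmd3 (49.8) and the highest at Psmc4 (316). The core assembly chaperones lay below most subunits, between 54.9 CPM per kb (Psmg4) and 100.4 (Psmg1), and the activators between 6.51 (Psme2b) and 77.1 (Psme1). The immune catalytic genes were low, with Psmb10 at 11.8 CPM per kb and Psmb9 at 0, as were the tissue-type genes Psma8 (0.999 CPM per kb) and Psmb11 (0.157). The coefficient of variation among the 10 CD44Neg libraries had a median of 20.2% over the 31 core and cap genes (8.53% to 36.5%), beside 22.97% over the 1738 genes of like level in the table.

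A few members cannot be read without reserve. Exons of 14 members overlap those of another gene in the annotation, among them Psmb9 with Tap1, Psmb8 with Gm20496 and Psme1 with Emc9, and the sources used here do not say whether counting used strand. Psme2b is a near-identical copy of Psme2, so reads may be split between them. The tissue-type genes were scarce: the thymus-type Psmb11 was at 0 in all CD44LowKitNeg and CD44High libraries and had at most 28 counts in 1 CD44Neg library, whereas the testis-type Psma8 reached 304 counts in 1 CD44LowKitPos library and 228 in 1 CD44High library, with at most 62.0 CPM.

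The summed level of the core and cap genes had a lower mean in CD44LowKitNeg than in CD44Neg, and 15 of the 31 genes were called lower. Added up, the 31 genes had their lowest, median and highest value in CD44Neg at 9614, 11376 and 15406 CPM, and in CD44LowKitNeg at 6855, 7703 and 11424 CPM. The means were 11842 ± 2068 (SD, n = 10) and 8196 ± 1774 (SD, n = 6), so that CD44LowKitNeg held 69.2% of the CD44Neg mean. The groups overlapped through a single library, CD44LowKitNeg replicate 14, the only one of E9.5, while the 5 others lay below every CD44Neg library. The cap was at 62.6% of the CD44Neg mean and the core at 74.9%, with the alpha ring at 84.9% and the beta ring at 62.9%. In bulk samples such as these, fewer cells of a type and less RNA per cell cannot be told apart.

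**Figure D1:**
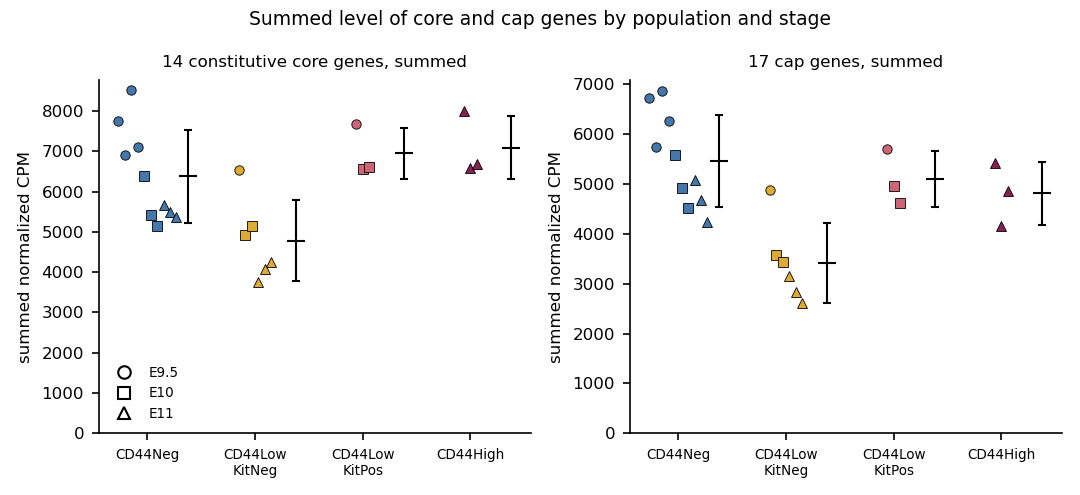
Summed normalized CPM of the 14 core genes and the 17 cap genes in every library, by population; marker shape gives the stage, and bars give mean ± SD. The 5 CD44LowKitNeg libraries of E10 and E11 lie at the bottom of both sums, and the E9.5 library lies among the CD44Neg libraries.

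Gene by gene, 47 of the 50 members had enough counts to be tested between CD44LowKitNeg and CD44Neg with edgeR's quasi-likelihood test (Benjamini-Hochberg adjustment, called at adjusted p under 0.01; the same test and threshold hold for all later comparisons). Of these 15 were called lower, 15 of 47 beside 5.23% of all 11022 genes tested, and 0 were called higher, beside 4.94% of all genes (2 members had an unadjusted p under 0.05 in that direction, and DESeq2 called 1). All 15 were core or cap genes. By role they were 2 of 7 alpha ring genes, 3 of 7 beta ring genes, 4 of 6 cap ATPases and 6 of 11 other cap subunits. The 17 cap genes all had a negative log2 fold change, as did 12 of the 14 core genes, with a median of -0.75 for the cap and -0.54 for the core, beside 0.005 over all genes. Psma1 (0.32) and Psma3 (0.23) were the exceptions. The groups did not overlap, with CD44LowKitNeg lower, in 6 members, Psmb3, Psmb7, Psmc2, Psmd2, Psmd8 and Psmd13, beside 3.08% of all genes.

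The smallest adjusted p belonged to Psmd2, which encodes the large scaffold subunit of the cap base. Its lowest, median and highest values were 363, 445 and 537 CPM in CD44Neg and 122, 174 and 285 CPM in CD44LowKitNeg. Every CD44LowKitNeg library thus lay below every CD44Neg library, and the log2 fold change was -1.23 ± 0.18 (SE, edgeR adjusted p = 8.11e-05). Psmd8, a lid subunit of the cap, went from 246.5, 292.5 and 328 CPM to 153, 167 and 208 CPM, with a log2 fold change of -0.74 ± 0.13 (edgeR adjusted p = 0.000366). It too separated the groups. Psmb7, the trypsin-like catalytic subunit, went from 254, 337 and 389.5 CPM to 143, 175 and 239 CPM, again without overlap (log2 fold change -0.86 ± 0.15, edgeR adjusted p = 0.000486).

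The other calls were spread over both particles. The ATPases Psmc1 (-0.99), Psmc4 (-0.98), Psmc5 (-0.87) and Psmc2 (-0.75) were all lower on the log2 scale, with edgeR adjusted p between 0.000891 and 0.0032. So were the cap subunits Psmd13 (-0.94) and Psmd4 (-0.77), the second a ubiquitin receptor, and Psmb3 (-0.88), a beta ring subunit without catalytic activity. Psmb6, the caspase-like catalytic subunit, averaged 366 ± 96.7 CPM (SD, n = 6) against 701.5 ± 256 (SD, n = 10) and was called with a log2 fold change of -0.93 ± 0.22 (edgeR adjusted p = 0.00542). Its groups overlapped at replicate 14, and its call was lost under several alternatives. The third catalytic subunit, Psmb5, had 91.1 ± 10.3 CPM against 121.5 ± 21.3 and was not called (log2 fold change -0.41 ± 0.16, edgeR adjusted p = 0.0692). The remaining calls were Psmd11, Psma7, Psma6 and Psmd3.

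No chaperone, activator or inhibitor-like gene was called in this comparison. The 3 chaperones of the cap base had log2 fold changes between -0.74 and -0.48. Psme4, a large single-chain activator, stood on the opposite side to the subunits with 136 ± 43.0 CPM (SD, n = 6) against 78.8 ± 20.04 (SD, n = 10) and an edgeR adjusted p of 0.0119 (log2 fold change 0.80 ± 0.21). Psme3, the nuclear relative of Psme1 and Psme2, was at 27.7 ± 6.46 CPM against 51.4 ± 21.7 (log2 fold change -0.88, edgeR adjusted p = 0.0516). Psme1 (0.50) and Psme2 (0.19) had positive log2 fold changes without a call.

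The core and cap sum was lower in CD44LowKitNeg inside each stage. At E9.5 the single CD44LowKitNeg library had 11424 CPM of core and cap, below the 4 CD44Neg libraries at 12647 to 15406. At E10 the 2 CD44LowKitNeg libraries had 8489 and 8579 CPM, below the 3 CD44Neg libraries at 9659 to 11984. At E11 the 3 CD44LowKitNeg libraries had 6855 to 6917 CPM, below 9614 to 10768. No stage showed any overlap of the sums. Of the 31 genes, 27 had the lower mean in CD44LowKitNeg at E9.5, 27 at E10 and, at the last stage, 30, with a median log2 difference of -0.49, -0.56 and -0.64 beside 0, 0 and -0.04 over all 12997 genes. The groups were fully apart in that direction for 19 genes at E9.5 (22.5% of all genes), 22 at E10 (18.4%) and 23 at E11 (16.9%). Fitted on the 6 E11 libraries alone, however, the test called 0 members, with 376 of all genes called, and Psmd2 had a log2 fold change of -1.13 (edgeR adjusted p = 0.0111).

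**Figure D2:**
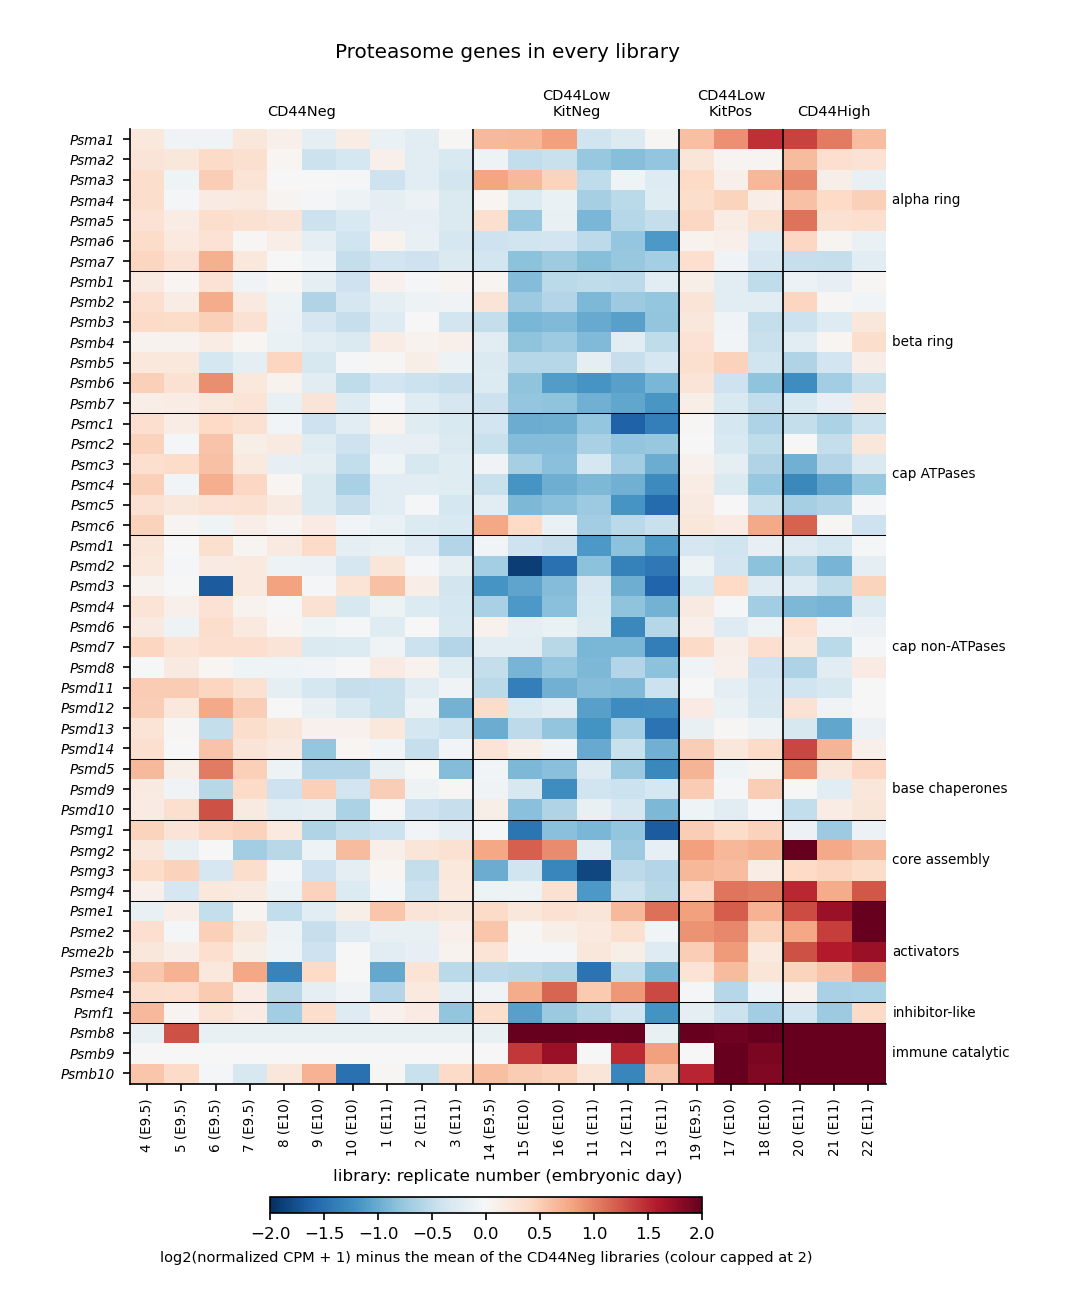
Each of 47 proteasome genes in each of the 22 libraries, drawn as log2(normalized CPM + 1) minus the mean of the CD44Neg libraries, with the colour capped at 2 in both directions. Core and cap genes are mostly blue in the CD44LowKitNeg columns, and Psmb8, Psmb9 and Psmb10 are dark red in the CD44High columns.

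In CD44LowKitPos the core sum, the cap sum and their total lay within the range of CD44Neg. Of the rings, the alpha ring sum of replicate 18 (4603 CPM) was above the highest CD44Neg library (4459) and its beta ring sum (2006 CPM) below the lowest (2177). The summed core and cap was 11516, 11226 and 13385 CPM in replicates 17, 18 and 19, above 5 of the 6 CD44LowKitNeg libraries, with a mean of 12042 ± 1172 (SD, n = 3). Against CD44LowKitNeg all 31 core and cap genes had a positive log2 fold change, with a median of 0.63 beside -0.02 over all genes, but none of them was called, and 22 had an unadjusted p under 0.05, beside 14.5% of all genes in that direction. With DESeq2's size factors the median of all genes moved to -0.16, and the median of the members from 0.64 to 0.52. At E10, where 2 libraries of each population can be set side by side, 29 of 31 genes had the higher mean in CD44LowKitPos and 27 were apart, beside 27.5% of all genes. Psmd7 (0.93, edgeR adjusted p = 0.0198), Psmd2 (0.82, edgeR adjusted p = 0.0219) and Psmd8 (0.63, edgeR adjusted p = 0.0225), all cap subunits, had the smallest adjusted p of the subunits on this side.

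The members that rose from CD44LowKitNeg to CD44LowKitPos were 2 of 49 tested, beside 2.55% of 12949 genes, and 0 fell, beside 1.71% (1 member, Psme4, had an unadjusted p under 0.05 there, and DESeq2 called 1 lower). A share this near that of all genes is no result about the members, and the 2 genes are described by their values. Psmg3, a chaperone that helps the core assemble, had 73.0, 53.0 and 76.1 CPM in CD44LowKitPos against 12.8 to 35.9 in CD44LowKitNeg, without overlap (log2 fold change 1.38 ± 0.30, edgeR adjusted p = 0.00477). Psmg1, another of these chaperones, had 131, 140 and 143 CPM against 31.1 to 98.8, also without overlap (log2 fold change 1.31 ± 0.30, edgeR adjusted p = 0.00718). Psmg4 (1.17) missed the threshold with an adjusted p of 0.0142, and Psmg2 (0.27) was far from it. These calls were not stable: 0 members were called when any 1 of CD44LowKitNeg replicates 11 and 16 or of the 3 CD44LowKitPos libraries was left out, 1 was called without CD44LowKitNeg replicate 12, 13 or 15, without CD44Neg replicate 2, 5 or 8, or without any 1 CD44High library, and 3 without CD44Neg replicate 10. With stage as a covariate the Psmg3 call was lost, and on the libraries of E9.5 and E10 alone both calls were.

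Of the activators and catalytic genes, none was called between CD44LowKitPos and CD44LowKitNeg. Psmb10 came closest with 74.3, 54.6 and 43.3 CPM against 5.17 to 22.1, groups that did not overlap (log2 fold change 1.69 ± 0.42, edgeR adjusted p = 0.0113). Psme3 had a log2 fold change of 1.14 (edgeR adjusted p = 0.0445) and Psme4 one of -1.04 (edgeR adjusted p = 0.0293). The constitutive Psmb7 (0.64), Psmb6 (0.61) and Psmb5 (0.57) had log2 fold changes of like size, as did Psme2 (0.59) and Psme1 (0.41), and none was called. Psmb8 (1.03 ± 1.05, edgeR adjusted p = 0.579) and Psmb9 (1.34 ± 1.35, edgeR adjusted p = 0.579) had SEs as large as their fold changes.

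**Figure D3:**
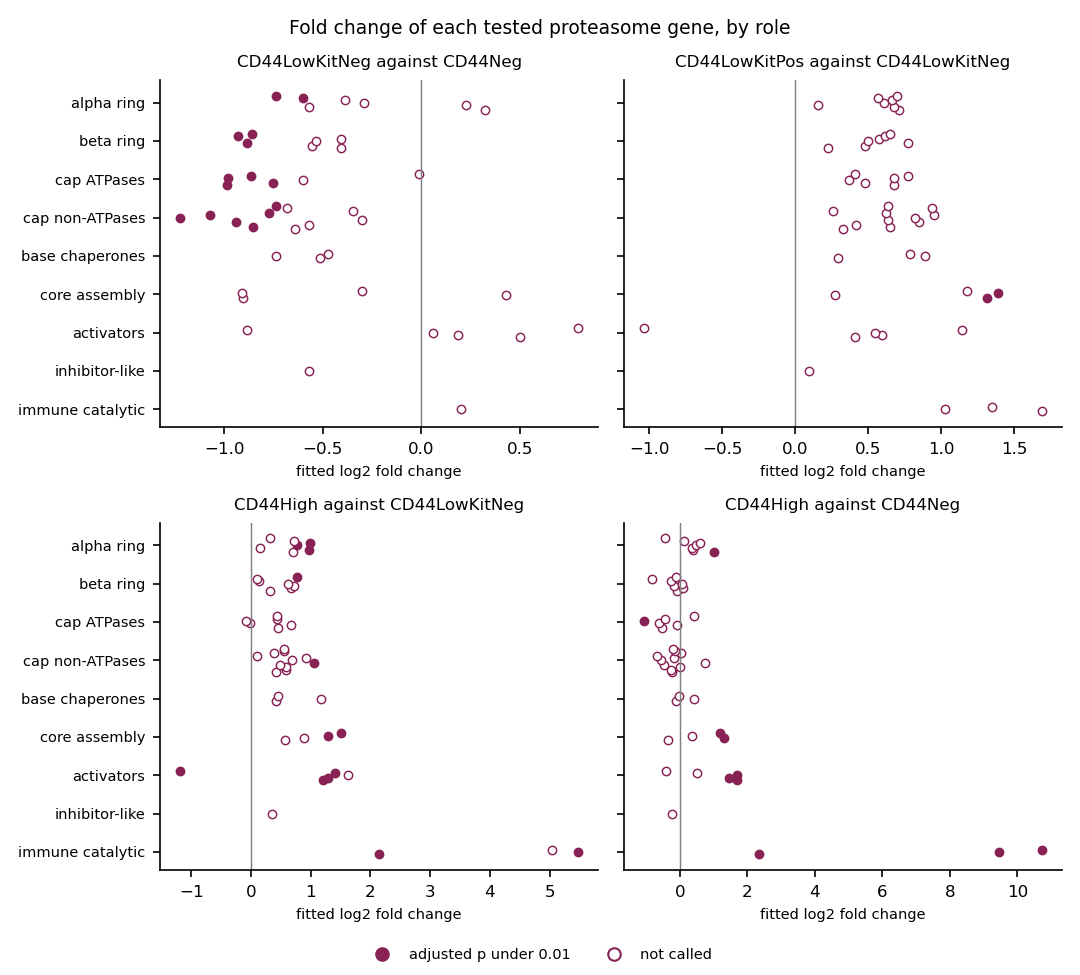
Fitted log2 fold change (horizontal axis) of the tested proteasome genes of 9 roles in 4 comparisons (the tissue-type genes and Psmc3ip are not drawn); filled circles have an edgeR adjusted p under 0.01 and open circles do not. The calls against CD44Neg in the first panel are core and cap genes left of 0, and those of CD44High against CD44Neg are mostly assembly, activator and immune genes right of 0, where the positions of Psmb8 and Psmb9 depend on the prior count added in the fit.

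The immune catalytic genes and the ring activators Psme1 and Psme2 made up 5 of the 10 calls of CD44High against CD44Neg. Their promoters are shown here beside those of the constitutive Psmb5 and Psmb6, which Psmb8 and Psmb9 replace. The promoter of Psmb7, which Psmb10 replaces, is not shown. RefSeq promoters (build GRCm38.p6, 250 bases before to 50 after the start) matched 42 of the 50 members with 45 entries, and the 7 below were chosen from the catalytic and activator genes the next results turn on. Sequences run 5′ to 3′ on the gene's strand, and capitals mark a match to a motif, which is a description of the letters only. Psmb5 lies at chr14:54617946-54618245 on the minus strand, Psmb6 at chr11:70525107-70525406 on the plus strand, Psmb8 at chr17:34197945-34198244 on the plus strand, Psmb9 at chr17:34187281-34187580 on the minus strand, Psmb10 at chr8:105938343-105938642 on the minus strand, Psme1 at chr14:55578244-55578543 on the plus strand and Psme2, by the first of its entries, at chr14:55591052-55591351 on the minus strand.
Psmb5: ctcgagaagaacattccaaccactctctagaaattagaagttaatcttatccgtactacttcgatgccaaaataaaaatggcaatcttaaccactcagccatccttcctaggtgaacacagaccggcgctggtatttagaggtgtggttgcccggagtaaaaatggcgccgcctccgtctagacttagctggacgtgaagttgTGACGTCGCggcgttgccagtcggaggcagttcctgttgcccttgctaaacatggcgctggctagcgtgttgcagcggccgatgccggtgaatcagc
Psmb6: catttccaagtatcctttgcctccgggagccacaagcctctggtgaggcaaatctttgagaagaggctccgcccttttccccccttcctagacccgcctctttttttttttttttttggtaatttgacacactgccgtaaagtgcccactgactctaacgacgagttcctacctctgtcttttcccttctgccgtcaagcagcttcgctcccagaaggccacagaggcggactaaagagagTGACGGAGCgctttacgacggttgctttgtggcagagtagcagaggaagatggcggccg
Psmb8: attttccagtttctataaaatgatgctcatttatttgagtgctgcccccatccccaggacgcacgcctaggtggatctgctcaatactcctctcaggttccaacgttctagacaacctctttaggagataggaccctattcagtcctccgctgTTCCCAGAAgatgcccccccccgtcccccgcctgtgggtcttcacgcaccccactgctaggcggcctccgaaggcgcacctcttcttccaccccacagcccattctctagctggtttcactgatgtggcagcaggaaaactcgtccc
Psmb9: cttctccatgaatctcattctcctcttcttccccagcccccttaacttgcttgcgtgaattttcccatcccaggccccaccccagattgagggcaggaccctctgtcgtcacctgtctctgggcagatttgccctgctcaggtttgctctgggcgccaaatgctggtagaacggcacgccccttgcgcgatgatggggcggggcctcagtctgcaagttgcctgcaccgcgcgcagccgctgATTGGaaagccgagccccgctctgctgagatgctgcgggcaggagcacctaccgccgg
Psmb10: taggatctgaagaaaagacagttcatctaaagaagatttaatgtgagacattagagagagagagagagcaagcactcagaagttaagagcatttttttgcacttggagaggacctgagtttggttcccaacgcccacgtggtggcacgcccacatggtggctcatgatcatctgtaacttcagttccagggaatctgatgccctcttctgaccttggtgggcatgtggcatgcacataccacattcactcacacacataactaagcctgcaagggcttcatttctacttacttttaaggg
Psme1: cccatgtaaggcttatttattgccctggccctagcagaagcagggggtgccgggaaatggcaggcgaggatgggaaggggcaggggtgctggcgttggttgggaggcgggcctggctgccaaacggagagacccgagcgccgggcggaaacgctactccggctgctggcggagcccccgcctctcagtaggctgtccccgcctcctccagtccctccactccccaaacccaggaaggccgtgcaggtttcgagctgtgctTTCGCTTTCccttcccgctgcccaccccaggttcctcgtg
Psme2: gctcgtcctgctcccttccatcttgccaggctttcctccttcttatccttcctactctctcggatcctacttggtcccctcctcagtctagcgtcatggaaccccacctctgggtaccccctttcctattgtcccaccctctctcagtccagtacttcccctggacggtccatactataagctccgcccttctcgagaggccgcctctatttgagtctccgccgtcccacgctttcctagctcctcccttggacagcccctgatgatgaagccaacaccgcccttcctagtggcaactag

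In Psmb5 and Psmb6 the capitals mark TGACNNNGC, the antioxidant response element, which 6 of the 45 member promoters held beside 12.4% of all 32851 promoters. In Psmb8 they mark TTCNNNGAA, the gamma-activated sequence, which 3 of 45 held (Psmb8, Psmd2 and Psmg1) beside 8.30% of all. In Psmb9 they mark the reverse complement of CCAAT, the CCAAT box, held by 15 of 45 beside 37.4% of all, and in Psme1 the reverse complement of GAAANNGAA, the interferon-stimulated response element, held by 7 of 45 beside 8.56% of all. The windows of Psmb10 and Psme2 held none of the 5 motifs searched. The fifth motif, CCGGAAG, the site of ETS factors, was held by 16 of the 45 member promoters beside 8.86% of all, and by none of the 7 shown. All motifs were searched on both strands, may overlap one another, and were chosen after the counts had been seen.

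All 3 immune catalytic genes had their lowest mean in CD44Neg and their highest in CD44High, and they differed in where the values parted. Psmb8, the replacement of the chymotrypsin-like Psmb5, was at 0 in 9 CD44Neg libraries and had 7 counts (1.67 CPM) in replicate 5. In CD44LowKitNeg it lay between 0 and 4.53 CPM, with 0 in replicates 13 and 14, and in CD44LowKitPos it was 3.26, 8.94 and 3.92 CPM. The 3 CD44High libraries stood well above, at 56.8, 127 and 171 CPM in replicates 20, 21 and 22. Psmb9, the replacement of Psmb6, was at 0 in all 10 CD44Neg libraries, where 3 counts would be 0.606 CPM on average, and lay between 0 and 2.30 CPM in CD44LowKitNeg. It was 5.74, 2.67 and 0 CPM in CD44LowKitPos and 11.1, 46.9 and 52.0 CPM in CD44High. Psmb10, the replacement of Psmb7, was present in every library, at 4.46, 15.7 and 23.9 CPM (lowest, median and highest) in CD44Neg and 5.17, 20.5 and 22.1 in CD44LowKitNeg. It was 74.3, 54.6 and 43.3 CPM in CD44LowKitPos and 71.5, 62.0 and 102 CPM in CD44High, so that the 2 endothelial populations overlapped with each other and the 2 blood-labelled ones did too, with a gap between the pairs.

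**Figure D4:**
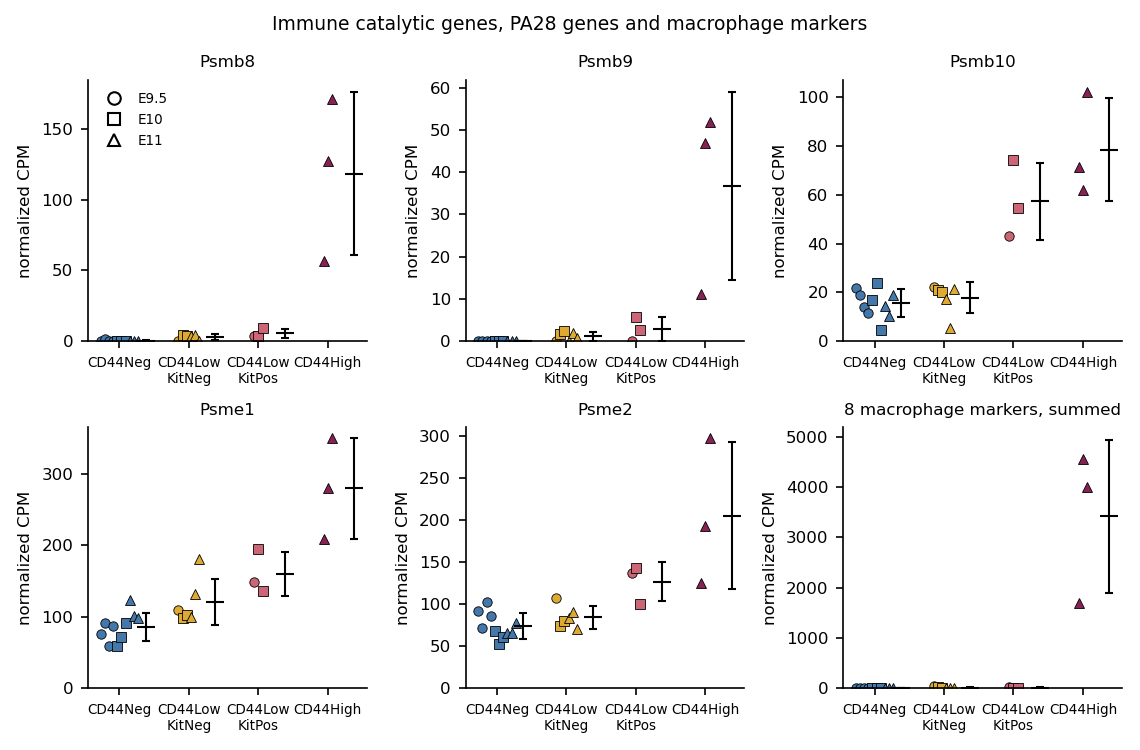
Normalized CPM of Psmb8, Psmb9, Psmb10, Psme1 and Psme2 and the summed CPM of 8 macrophage markers, a point per library, by population. Psmb8, Psmb9 and the macrophage markers are far highest in the 3 CD44High libraries, whereas Psmb10 is also high in the 3 CD44LowKitPos libraries, at 43.3 to 74.3 CPM.

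Against CD44Neg, CD44LowKitPos had 4 of 49 members called higher, beside 2.08% of all genes, and 0 lower, beside 1.41% (0 members had an unadjusted p under 0.05 in that direction). They were the 3 immune catalytic genes and Psma1, an alpha ring gene. Psmb10 had a log2 fold change of 1.89 ± 0.37 (edgeR adjusted p = 0.00233). Psmb8 averaged 5.37 ± 3.11 CPM against 0.167 (edgeR adjusted p = 0.00381), a level of a few CPM. For Psmb9 the fit gave an edgeR adjusted p of 0.00677, but this rests on 37, 20 and 0 counts in CD44LowKitPos against 0 in all 10 CD44Neg libraries, and nothing is read from it. Both genes, at or near 0 in CD44Neg, passed the filter on low counts through the other populations. Nothing is therefore read from the p-values of Psmb8 and Psmb9 or from their part in the count of 4. Psma1 had 970, 1421 and 783 CPM against 439 to 603, without overlap (log2 fold change 1.03 ± 0.22, edgeR adjusted p = 0.00415). With stage as a covariate all 4 calls were lost, at edgeR adjusted p of 0.0129 for Psmb8, 0.0199 for Psmb9, 0.0104 for Psmb10 and 0.0121 for Psma1, and the 1 member called was Psme1 (edgeR adjusted p = 0.00263). At E9.5 and E10 alone Psma1 and Psme1 were called, Psmb8 (edgeR adjusted p = 0.108) and Psmb10 (edgeR adjusted p = 0.0139) were not, and Psmb9 was too low to test. Without CD44LowKitPos replicate 18 none of the 4 was called, without replicate 17 only 1 member, and without CD44Neg replicate 5 only 2. The Psmb9 call held in 18 of 28 alternatives: besides the covariate, it was lost without any 1 of CD44Neg replicates 2, 3, 5, 7 and 8, CD44LowKitPos replicates 17 and 18 and CD44High replicates 21 and 22, at edgeR adjusted p between 0.0101 and 0.0471. The Psmb8 call held in 25 of 29 and was also lost in DESeq2's Wald test (adjusted p = 0.0315). Psme1 (0.90, edgeR adjusted p = 0.0135) and Psme2 (0.77, edgeR adjusted p = 0.0369) lay short of the threshold. Psme3 (0.25), Psme4 (-0.25), Psmb5 (0.16), Psmb6 (-0.33) and Psmb7 (-0.22) were not called, and the median over core and cap was -0.10 on the log2 scale.

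CD44High against CD44Neg gave the smallest adjusted p of all comparisons of the members, also with Psmb8 and Psmb9 left aside. Of 49 tested, 9 were called higher, beside 7.14% of all genes, and 1 lower, beside 7.25%. Psmb8 averaged 118 ± 57.7 CPM (SD, n = 3) against 0.167 in CD44Neg (edgeR adjusted p = 6.84e-07). Psmb9 averaged 36.6 ± 22.3 CPM, at least 60.5-fold above the mean floor of 3 counts per library in CD44Neg (edgeR adjusted p = 8.51e-05). Both genes, at or near 0 in CD44Neg, passed the filter on low counts through the other populations. Nothing is therefore read from these 2 p-values or from the part of these genes in the count of 9. Psmb10 averaged 78.6 ± 21.1 CPM against 15.5 ± 5.81 (log2 fold change 2.34 ± 0.37, edgeR adjusted p = 4.39e-05). In each of the 3 genes every CD44High library lay above every CD44Neg library. Beside these values stand the macrophage markers of the same libraries: replicate 20, with the lowest Psmb8 and Psmb9, also had the lowest summed markers, while Psmb10 was lowest in replicate 21, which had the highest. The erythroid sum ran the other way, highest in replicate 20 and lowest in replicate 21. The Psmb10 values overlapped with those of CD44LowKitPos, whose summed macrophage markers were at most 18.8 CPM.

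The 2 ring activators rose with them. Psme1 had 209, 279 and 350 CPM in CD44High against 59.1 to 123 in CD44Neg (log2 fold change 1.70 ± 0.22, edgeR adjusted p = 2.98e-06). Psme2 had 125, 193 and 298 CPM against 53.0 to 102 (log2 fold change 1.46, edgeR adjusted p = 2.19e-05). Both genes separated the groups, and both had their lowest value in replicate 20, the library with the lowest summed macrophage markers (1697 CPM, against 4562 and 4007 in replicates 21 and 22). Psme2b passed the threshold (1.68, edgeR adjusted p = 0.00702) with levels of 14.4 to 20.1 CPM that may include reads of Psme2, and its call held in 14 of 29 alternatives. Psme3 (0.52) and Psme4 (-0.40) were not called.

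The other calls of CD44High against CD44Neg were constitutive. Psma1 averaged 1053 ± 263 CPM, beside 1058 ± 328 in CD44LowKitPos and 518 ± 59.3 in CD44Neg (log2 fold change 1.02, edgeR adjusted p = 0.00121). The assembly chaperones Psmg4 (1.20) and Psmg2 (1.32) were called with edgeR adjusted p of 0.00239 and 0.00443. Psmg2 had 410 CPM in replicate 20 against 157 and 144 in the others, beside a highest CD44Neg value of 143, and without that library its log2 fold change was 0.57 (edgeR adjusted p = 0.334). Psmg4 was not called without replicate 20 (edgeR adjusted p = 0.0567) or 22 (edgeR adjusted p = 0.0159), nor Psma1 without replicate 20 or 21. The single gene that fell was Psmc4, a cap ATPase, with 179, 210 and 259 CPM against 278 to 727, without overlap (log2 fold change -1.08 ± 0.27, edgeR adjusted p = 0.00459). Its call too was lost without replicate 20 or 21. Psmb6 (-0.83, edgeR adjusted p = 0.0479), Psmb5 (-0.27) and Psmb7 (-0.10) were not called. At E11 alone, the stage that holds all CD44High libraries, 4 members were called, Psmb8, Psmb9, Psmb10 and Psme1. No share of all genes stands beside that count. Psmb8 and Psmb9, at 0 in the CD44Neg libraries of E11, were tested there through CD44High alone. Of the 31 core and cap genes at E11, 17 had the higher mean in CD44High and 14 the lower.

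Against CD44LowKitNeg, whose libraries had at most 53.0 CPM of summed macrophage markers beside 1697 to 4562 in CD44High, CD44High had 12 of 49 members called higher, beside 7.79% of all genes, and 1 lower, beside 8.17%. The immune genes Psmb8 (118 ± 57.7 against 2.64 ± 2.09 CPM, edgeR adjusted p = 0.000605) and Psmb10 (log2 fold change 2.14 ± 0.42, edgeR adjusted p = 0.000514) were among them, and Psmb9 was not (5.04, edgeR adjusted p = 0.0161). So were the activators Psme2 (1.28 ± 0.25, edgeR adjusted p = 0.000376), Psme1 (1.21 ± 0.25, edgeR adjusted p = 0.000697) and Psme3 (1.41, edgeR adjusted p = 0.00634), and the assembly chaperones Psmg4 (1.51) and Psmg3 (1.29). The core genes Psma2 (0.98), Psma5 (0.99), Psma4 (0.78) and Psmb7 (0.76) and the cap's deubiquitinating subunit Psmd14 (1.06) completed the list. Of these calls, that of Psmb7 held in 14 of 29 alternatives, that of Psme3 in 17 and that of Psma5 in 19, and without CD44High replicate 20 Psma5 dropped to 0.56 (edgeR adjusted p = 0.164). The genes Psmb5 (0.14) and Psmb6 (0.10) stood near 0 on the log2 scale. Psme4 fell by 1.19 on the log2 scale (SE 0.32, edgeR adjusted p = 0.00653), from 136 ± 43.0 to 59.5 ± 19.1 CPM. Its mean was highest in CD44LowKitNeg of all 4 populations, with 78.8 ± 20.04 CPM in CD44Neg and 66.2 ± 12.9 in CD44LowKitPos, but not at E9.5, where the 1 CD44LowKitNeg library had 72.7 CPM, below the 4 of CD44Neg (85.7 to 110) and the 1 of CD44LowKitPos (74.3).

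The core and cap sum of CD44High was 13410, 10737 and 11548 CPM in replicates 20, 21 and 22, whose macrophage markers summed to 1697, 4562 and 4007 CPM, above the 3 CD44LowKitNeg libraries of E11 (6855 to 6917 CPM). At that stage 30 of the 31 genes had the higher mean in CD44High and 21 were apart, beside 22.9% of all genes, with a median log2 difference of 0.74. The test on E11 alone called 1 member, Psmb8 (edgeR adjusted p = 0.00912), with 1160 of all genes called. Leaving out CD44High replicate 20 or 22 brought the 12 and 1 calls to 5 in all, leaving out replicate 21 to 6 and leaving out CD44LowKitNeg replicate 13 to 8.

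Between CD44High and CD44LowKitPos, with 1697 to 4562 and 10.1 to 18.8 CPM of summed macrophage markers, 0 of 49 members were called, beside 3.01% of all genes, and DESeq2 also called 0. At an unadjusted p under 0.05 there were 4 members, beside 17.8% of all genes. They were Psmb8 (4.45 ± 1.40, edgeR adjusted p = 0.0602), Psme1 (0.80, edgeR adjusted p = 0.122), Psme2 (0.69, edgeR adjusted p = 0.201) and Psmc4 (-0.76, edgeR adjusted p = 0.183). For Psmb8 and Psmb9 the 3 CD44High libraries still all lay above the 3 of CD44LowKitPos. Psmb9 had a log2 fold change of 3.70 (edgeR adjusted p = 0.295) and Psmb10 one of 0.45, with values that overlapped. Psmb5 (-0.43), Psmb6 (-0.51), Psmb7 (0.12), Psme3 (0.27) and Psme4 (-0.15) gave no call.

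Whether an immune subunit gained on the constitutive subunit it replaces was asked with the ratio of the 2 counts within each library, which needs no scaling between libraries. For every 100 counts of Psmb5 there were 0.120 counts of Psmb8 in CD44Neg, 3.04 ± 2.49 in CD44LowKitNeg, 4.81 ± 4.38 in CD44LowKitPos and 114 ± 36.2 in CD44High (72.1, 138 and 131 in replicates 20, 21 and 22). Psmb8 therefore exceeded the count of Psmb5 in 2 CD44High libraries, replicates 21 and 22, which had the higher macrophage marker sums (4562 and 4007 CPM, against 1697 in replicate 20). Psmb9 per 100 counts of Psmb6 stayed lower, at 0, 0.332 ± 0.310, 0.616 ± 0.579 and 8.67 ± 4.11 in the same order. Psmb10 per 100 counts of Psmb7 went from 4.75 ± 1.74 to 9.97 ± 3.77, 21.5 ± 8.26 and 25.6 ± 3.47. As a difference in these units, the largest step of the first 2 ratios was the last one, and that of the third lay between CD44LowKitNeg and CD44LowKitPos. These counts are not divided by gene length.

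**Figure D5:**
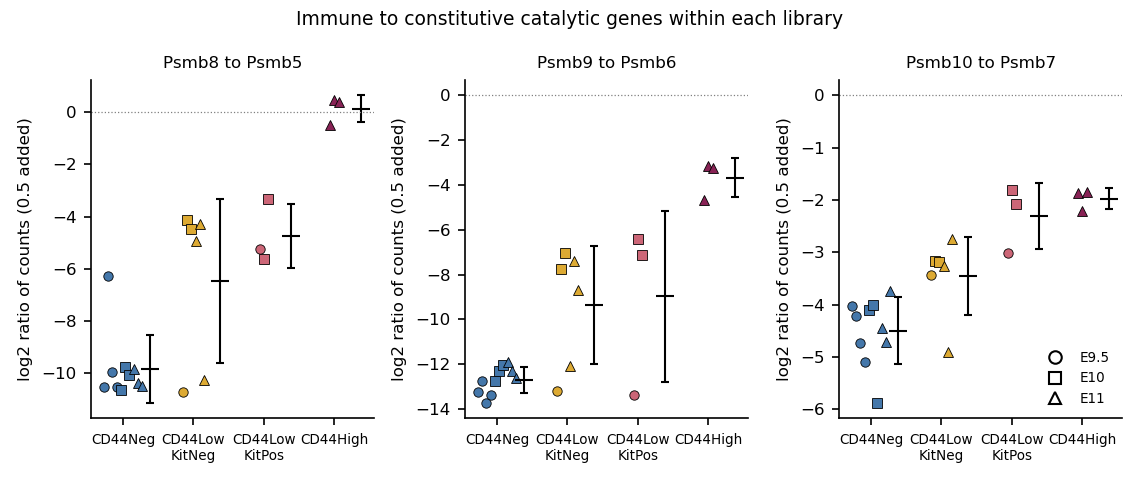
Log2 ratio of each immune catalytic gene to the constitutive gene it replaces, after adding 0.5 to both counts, a point per library, by population. The CD44High libraries lie above all CD44LowKitNeg libraries in the 3 ratios, and for Psmb10 to Psmb7 they overlap with CD44LowKitPos.

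The ratios were compared on the log2 scale, with 0.5 added to each count, by a two-sided exact permutation test, and p-values were adjusted over 12 tests with a threshold of 0.05. Between CD44LowKitNeg and CD44Neg the difference was 3.37 for Psmb8 to Psmb5 (exact p = 0.0137), 3.35 for Psmb9 to Psmb6 (exact p = 0.00774) and 1.05 for Psmb10 to Psmb7 (exact p = 0.00924), each with an adjusted p of 0.0476. Each of the 3 lost the threshold without any 1 of 5 of the 6 CD44LowKitNeg libraries, with adjusted p up to 0.0733. With many libraries at 0 counts, the first 2 differences depend on the 0.5 added, and in such a library the ratio is set by the count of the constitutive gene: with Psmb9 at 0, the log2 ratio ran from -13.7 to -11.9 over the CD44Neg libraries. For Psmb10 to Psmb7 the numerator was not called between these populations (log2 fold change 0.20), whereas the denominator Psmb7 was called lower. Between CD44High and CD44LowKitNeg the differences were 6.60, 5.69 and 1.48, each with an exact permutation p of 0.0238, the smallest that 3 against 6 libraries allow, and an adjusted p of 0.0476. All 3 lost the threshold whichever of the 9 libraries was left out (exact permutation test, adjusted p 0.0612 to 0.122), where the smallest possible p rises. CD44LowKitPos and CD44LowKitNeg differed by 1.74 (exact p = 0.548), 0.39 (exact p = 0.762) and 1.15 (exact p = 0.0476, adjusted p = 0.0816). Between CD44High and CD44LowKitPos, where 3 against 3 libraries cannot go below 0.1, the differences were 4.86 and 5.30 (exact p = 0.1 for both) and 0.33 (exact p = 0.7). At E11 alone, where 3 libraries stand on each side and the test cannot pass, the differences were 3.74, 2.89 and 0.66 for CD44LowKitNeg minus CD44Neg and 6.63, 5.72 and 1.67 for CD44High minus CD44LowKitNeg.

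Within CD44Neg the sum of the constitutive genes was highest at the earliest stage. The core and cap sum lay between 12647 and 15406 CPM at E9.5, between 9659 and 11984 at E10 and between 9614 and 10768 at E11, so that the E9.5 libraries stood above all later ones. Other measures differed with stage in the same libraries. The endothelial markers summed to 2200 to 2768 CPM at E9.5 and 3759 to 4179 at E11, and the ribosomal transcript Rn45s took 1.92% to 13.8% of counts at E9.5 and 15.2% to 17.9% at E11. Replicate 6, with the highest sum of all, had the 1.92%. The part of these measures in the stage values was not tested. Between E11 and E9.5 0 of 47 members were called, beside 0.684% of all genes (DESeq2 called 8, all lower). At an unadjusted p under 0.05 there were 25 members, beside 17.1% of all genes, and all 25 were lower at E11. Psmb6 came closest with 496 ± 14.6 CPM (SD, n = 3) against 948 ± 224 (SD, n = 4) (log2 fold change -0.92 ± 0.18, edgeR adjusted p = 0.0149), followed by Psma7 (-0.77, edgeR adjusted p = 0.0175) and the lid subunit Psmd12 (-0.94, edgeR adjusted p = 0.0195). Psmb7 (-0.37), Psmb5 (0.04), Psmb10 (-0.15), Psme1 (0.47), Psme2 (-0.31), Psme3 (-0.90) and Psme4 (-0.50) were far from a call, and Psmb8 and Psmb9 were too low to test.

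CD44LowKitNeg showed the same order of sums, with the single E9.5 library at 11424 CPM, the 2 of E10 at 8489 and 8579 and the 3 of E11 at 6855 to 6917. Here the blood progenitor markers summed to 78.1, 231 and 105 CPM in the E9.5 and E10 libraries and to 4.49 to 12.1 at E11, the endothelial markers to 2803 to 3806 and 5445 to 5982 CPM, and Rn45s took 7.29% to 11.1% and 17.4% to 19.2% of counts. Their part was not tested either. Between E11 and the 3 earlier libraries 0 of 49 members were called, beside 0.173% of all genes (DESeq2 called 6, all lower). At an unadjusted p under 0.05 there were 9, beside 16.8% of all genes. Psmg2 (-1.30, edgeR adjusted p = 0.0457) and Psmd12 (-1.14, edgeR adjusted p = 0.0489) came closest, and Psma1 had 447 ± 70.4 CPM (SD, n = 3) against 845 ± 58.1 (SD, n = 3) without overlap (log2 fold change -0.88, edgeR adjusted p = 0.0517). Psma1 had its highest means in CD44LowKitPos and CD44High. The catalytic genes lay between -0.56 (Psmb9) and 0.20 (Psmb5) and Psme1 to Psme4 between -0.31 (Psme3) and 0.45 (Psme1), with none called. Whether the population difference itself changed from E10 to E11 was tested with an interaction term fitted on the 11 libraries of the 2 endothelial populations at those stages. It gave 0 calls among the members, beside 0.00806% of all genes (DESeq2 called 0), and 4 members at an unadjusted p under 0.05, beside 10.7% of all genes, namely Psmg2, Psma1, Psma3 and Psma8.

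The genes around the proteasome were counted from lists. Of 23 further pathway genes (assembly factor, transcription factors that control the subunits, shuttle and processing factors), 2 were lower in CD44LowKitNeg than in CD44Neg (5.23% of all genes), the cap's ubiquitin receptor Adrm1 (-0.76) and Vcp (-0.75), the ATPase that extracts ubiquitinated proteins, and 1 was higher (4.94% of all genes), Akirin2 (1.29), which helps carry proteasomes into the nucleus. Calls this few, near the background, are no result about the list. In CD44High, Akirin2 was lower than in CD44LowKitNeg (-1.08) and Adrm1 lower than in CD44Neg (-0.97), and no other comparison between populations gave a call in this list. Among genes for ubiquitin and its activating enzymes, Uba1 was lower in CD44LowKitNeg than in CD44Neg (-0.72, beside 5.23% of all genes). Rps27a, a ubiquitin fusion with a ribosomal protein, was higher in CD44High than in CD44LowKitNeg (1.29, beside 7.79% of all genes) and CD44Neg (1.005, beside 7.14%). Single calls such as these are no result about the list either.

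Interferon signalling and class I presentation genes, which act upstream and downstream of the immune subunits, had 3 of 19 tested genes higher in CD44LowKitNeg than in CD44Neg (4.94% of all genes) and 0 lower (5.23% of all genes). They were B2m, the light chain of class I (1.48), Tapbp, which loads peptides (2.19), and the interferon gamma receptor Ifngr1 (1.15). Psmb8, Psmb9 and Psmb10 were not called in that comparison, the first 2 being too low to test. From CD44LowKitNeg to CD44LowKitPos 0 of 22 were called, beside 2.55% of all genes higher and 1.71% lower, which is no result about the list. At an unadjusted p under 0.05 there were 5, all lower, a count for which no share of all genes is given. Against CD44Neg, CD44LowKitPos had 1 of 22 (2.08% of all genes higher), Ifngr1 (1.24), again no result about the list. CD44High had 7 of 22 higher than CD44Neg (7.14% of all genes), among them H2-K1 (2.90), B2m (2.46), Tapbp (2.39) and the peptide transporter Tap1, at 16.99 ± 10.5 CPM against 0.159. Tap1, at 0 in 9 of 10 CD44Neg libraries, passed the filter on low counts through CD44High, and nothing is read from its call. CD44High also had 6 of 22 higher than CD44LowKitNeg (7.79% of all genes) and 2 of 22 higher than CD44LowKitPos (3.01% of all genes in either direction), B2m (2.04) and Ifngr2 (2.26). In these comparisons 0 were lower, beside 7.25% of all genes against CD44Neg and 8.17% against CD44LowKitNeg.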

How the data were processed

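RNA of 25 sorted cells per library was amplified by the Smart-seq2 protocol (14 PCR cycles, no molecular identifiers), made into Nextera libraries and sequenced on a NextSeq. The authors clipped reads with FASTX, used RNA STAR for alignment and htseq-count for counting. The deposited values are raw counts per gene, without normalization. The submitters' processing notes name mm10, FastQC and HTSeq; the annotation and strand setting of the counting are not given in the sources used here. Samples were grouped by their labels, and 0 columns were left out.

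Counts were filtered with filterByExpr (minimum count 10, minimum total 15), normalized by TMM and tested with edgeR 4.0.16 in R 4.3.3 (quasi-likelihood test, Benjamini-Hochberg adjustment over all genes tested, threshold 0.01). CD44LowKitNeg against CD44Neg was fitted on their 16 libraries, the other population comparisons on all 22. The SE is the log2 fold change divided by the square root of F. CPM are scaled by TMM over 22 libraries. Ratios were tested with scipy 1.17.1 and drawn with matplotlib 3.10.9. The fits were also run on simulated counts with known changes and the same fixed dispersion for every gene, which is no check of the spread in these libraries. Depth was 3912350 to 8657546 counts per library; intervals of counting error do not cover amplification. Between libraries of a population, chi-square divided by its degrees of freedom was at least 17.6 over 66 pairs. Exon lengths and gene overlaps came from GENCODE M21, basic set (GRCm38, the same assembly as mm10), and promoters from RefSeq (GRCm38.p6).

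The members and lists were chosen with earlier results of these data known. Every member is accounted for; values are given in every comparison between populations for the 3 catalytic pairs and for Psme1 to Psme4 where tested (between stages by range, and for the interaction not printed), and otherwise for called members, at most 10 per comparison by smallest adjusted p. Others named were chosen after their values were seen. Alternatives were DESeq2 1.42.0 (size factors and Wald test), no filter, the ribosomal gene Rn45s left out, stage as a covariate, E11 alone or E9.5 and E10 alone, a threshold of 0.05 and each library left out.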

Additional observations from a re-analysis of the deposited data

Results flagged for a closer look

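In 8 of 106 groups of libraries tested, 1 library lay far from the others of its population by Dixon's criterion, which chance alone meets in about 1 of 20 groups. CD44LowKitNeg replicate 14, the only E9.5 library of that population, accounted for 3 of them: it had 499 CPM of Psma7 (the others 359 to 404), 622 CPM of Psmb2 (the others 279 to 347) and 553 CPM of Psmb6 (the others 295 to 379). CD44LowKitNeg replicate 12 had 5.17 CPM of Psmb10 (the others 17.2 to 22.1) and, with it, a log2 ratio of Psmb10 to Psmb7 of -4.90 (the others -3.43 to -2.75). CD44Neg replicate 5 was the only library of its population with Psmb8, at 1.67 CPM, and had a log2 ratio of Psmb8 to Psmb5 of -6.28 (the others -10.6 to -9.75). CD44Neg replicate 6 had 182 CPM of Psmd10, a chaperone of the cap base, and the others had 47.5 to 93.3.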

How the results depend on the processing

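With CD44LowKitNeg set against CD44Neg, 15 members were called, and E11 alone gave 0 and a threshold of 0.05 gave 24, while leaving out 1 library gave 10 to 19. For CD44LowKitPos against CD44LowKitNeg, where 2 were called, DESeq2's size factors gave 1, its Wald test 5, E9.5 and E10 alone 0 (with 0 of all genes called), the 0.05 threshold 15 and leaving out both E9.5 CD44Low libraries 1, an alternative added after the data were seen; leaving out 1 library gave 0 to 3. For CD44LowKitPos against CD44Neg (4 called) the stage covariate gave 1, Psme1, which was not among the 4, E9.5 and E10 alone gave 2, Psma1 and Psme1, and leaving out 1 library 0 to 5. For CD44High against CD44LowKitNeg (13 called) the covariate gave 23, E11 alone 1, the 0.05 threshold 24 and leaving out 1 library 5 to 17. For CD44High against CD44Neg (10 called) E11 alone gave 4 and leaving out 1 library 5 to 10. Between E11 and E9.5 in CD44Neg (0 called) no filter gave 3, DESeq2's Wald test 8 and the 0.05 threshold 5, and between E11 and earlier CD44LowKitNeg libraries (0 called) the Wald test gave 6 and the 0.05 threshold 2. The cause of these shifts was not tested. A looser threshold calls more of all genes too. Where no share of all genes stands beside a count under an alternative, here or above, that count is no result about the members.

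At E11 alone (3 libraries against 3, where the test cannot pass), CD44LowKitNeg minus CD44Neg was 3.74 for the log2 ratio of Psmb8 to Psmb5, 2.89 for Psmb9 to Psmb6 and 0.66 for Psmb10 to Psmb7, and CD44High minus CD44LowKitNeg was 6.63, 5.72 and 1.67. Leaving out 1 library gave 2.90 to 4.22, 2.88 to 4.12 and 0.89 to 1.34 for the first comparison and 5.75 to 7.07, 4.92 to 6.18 and 1.19 to 1.62 for the second, where the smallest possible p rises. For CD44LowKitPos minus CD44LowKitNeg, Psmb9 to Psmb6 lay between -0.89 and 2.58, and for CD44High minus CD44LowKitPos, Psmb10 to Psmb7 lay between -0.028 and 0.57.

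Of 2224 values of named members under alternatives, 2046 kept direction and side of the threshold, 154 lost it, 15 gained it and 9 changed sign, all of these uncalled. In CD44High against CD44LowKitNeg, Psmb5 had -0.064 at E11 alone and -0.17 to 0.16 with 1 library left out, and Psmb6 -0.16 to 0.26. Psmb7 in CD44High against CD44Neg had 0.16 with the covariate and 0.055 at E11 alone, and against CD44LowKitPos -0.088 to 0.30 with 1 library left out. Psmb5 in CD44LowKitPos against CD44Neg had -0.011 to 0.37. No paired analysis was possible because the replicate numbers of the populations are all different. With 25 cells and 3 libraries in 2 populations, genes at a few CPM such as Psmb9 are known only roughly.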
